A study of Homo sapiens with 8 samples.

Results

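The SLC1, SLC3, SLC6, SLC7, SLC36, SLC38 and SLC43 families hold most of the carriers that move amino acids across the plasma membrane and the lysosomal membrane. Every gene of these families was taken by symbol from the deposited count files, whatever its level. The families themselves were chosen with earlier results of these data known. Of 27317 listed symbols, 59 belonged to these families: 7 of SLC1, 2 of SLC3, 19 of SLC6, 13 of SLC7, 4 of SLC36, 11 of SLC38 and 3 of SLC43. The study sequenced 8 libraries made from total RNA of MEL1, an established line of human embryonic stem cells (ESC). All 4 groups were the same line, and each had 2 libraries. They were cells given 2 nM TCDD and taken at D2, cells given DMSO and taken at D2, cells given TCDD and taken at D1, and cells given DMSO and taken at D1. TCDD (2,3,7,8-tetrachlorodibenzodioxin) is a dioxin and a ligand of the aryl hydrocarbon receptor (AHR), a transcription factor, and DMSO is the solvent it was dissolved in. Exposure was at the ESC stage. D1 cells were collected just before differentiation, and D2 cells after 2 days in an insulin-free medium with 5 µM of the GSK3 inhibitor CHIR99021, the first step of a cardiac protocol that passes through mesoderm. The study asked which genes respond to TCDD in ESC and in early mesoderm. Time, medium and inhibitor changed together between D1 and D2, so their parts cannot be told apart. The length of the exposure is not given in the sources used here. Nor is it stated whether the libraries of a group came from separate cultures, so p-values measure only the spread between these libraries, which may be technical.

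Amino acid carriers fall into classes that differ in what drives them. The SLC7 light chains are exchangers that reach the cell surface only when bound to an SLC3 heavy chain. SLC7A5 (LAT1) with SLC3A2 (the heavy chain of CD98) brings in leucine and other large neutral amino acids in exchange for glutamine. SLC7A11 with SLC3A2 brings in cystine for glutathione. The cationic transporters of SLC7 carry arginine and lysine without a heavy chain. The sodium-coupled SLC38 carriers of system A accumulate small neutral amino acids and glutamine, and SLC1A5 exchanges glutamine for other neutral amino acids. At the lysosome, SLC38A9 and SLC36A1 link amino acids to the growth kinase mTORC1. Human pluripotent stem cells are known for a high demand for glutamine and methionine, which are substrates of several of these carriers.

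The stretches before the transcription starts of 3 members are shown because these members carry the TCDD results: SLC3A2 and SLC7A14 were called at D2, and SLC7A5 is the partner of SLC3A2. The sequences are the 250 bases upstream of a start site in the RefSeq annotation of GRCh38.p14, read 5′ to 3′ on the gene's strand. Capitals mark GCGTG or its reverse complement, the core to which AHR and its partner ARNT bind in dioxin response elements. SLC3A2 lies on chromosome 11 (chr11:62855859-62856108, plus strand, the most upstream of 3 annotated windows), SLC7A5 on chromosome 16 (chr16:87869508-87869757, minus strand) and SLC7A14 on chromosome 3 (chr3:170586076-170586325, minus strand).
SLC3A2: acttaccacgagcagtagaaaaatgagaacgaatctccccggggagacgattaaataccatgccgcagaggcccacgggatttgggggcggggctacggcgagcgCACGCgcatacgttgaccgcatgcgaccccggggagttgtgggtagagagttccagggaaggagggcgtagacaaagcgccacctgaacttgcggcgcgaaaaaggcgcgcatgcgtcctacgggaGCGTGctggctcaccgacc
SLC7A5: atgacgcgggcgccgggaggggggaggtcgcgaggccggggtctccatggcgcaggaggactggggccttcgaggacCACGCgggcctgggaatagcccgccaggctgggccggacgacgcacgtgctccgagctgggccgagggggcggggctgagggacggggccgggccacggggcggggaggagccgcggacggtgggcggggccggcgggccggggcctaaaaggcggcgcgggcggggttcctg
SLC7A14: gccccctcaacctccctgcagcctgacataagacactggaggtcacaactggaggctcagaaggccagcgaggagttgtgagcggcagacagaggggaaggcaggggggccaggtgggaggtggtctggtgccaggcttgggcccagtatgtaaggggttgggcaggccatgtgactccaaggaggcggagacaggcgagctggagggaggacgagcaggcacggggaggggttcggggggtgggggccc

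The SLC3A2 window held 2 matches to GCGTG, which begin 145 and 19 bases before the start, and the SLC7A5 window held 1, at 173 bases. The other windows of SLC3A2, farther downstream, held 1 match and none. No such letters were in the SLC7A14 window. The same letters, on either strand, were in 32.2% of all 35116 upstream windows and in 30 of the 66 windows of 44 members (45.5%). The SLC7A5 window also held 1 E-box (CACGTG), a motif found in 6.34% of all windows and in 13.6% of the 66 member windows. The CTTTGA core of TCF and LEF, the factors at the end of the Wnt pathway, was in 11.2% of all windows. It was in 9.09% of the member windows, those of 6 members. The element TGATGNAA, bound by ATF4 with C/EBP partners, was in 3.14% of all windows. It was in 3.03% of the member windows, those of 2 members, SLC1A3 and SLC1A5. These matches describe letters in short windows and do not show binding.

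Library totals ran from 34873055 to 43770420 counts, and the 59 transporter genes took 0.270% to 0.356% of them. Levels are given as CPM, the count divided by the library total and put on a common scale, with totals adjusted by TMM factors of 0.958 to 1.04. Low genes were removed with a filter that left 17268 genes, among them 44 of the 59 members. Each of the other 15 had at most 14 counts in any library and was not tested. They included the intestinal and kidney carriers SLC3A1, SLC7A9, SLC6A18 and SLC6A19 with at most 7 counts, the serotonin transporter SLC6A4 with at most 12, SLC6A20 with at most 14 and SLC7A13 with none. All 7 pluripotency markers were detected at both times. POU5F1 averaged 515.7 CPM in TCDD D2, 470.3 CPM in DMSO D2, 449.8 CPM in TCDD D1 and 451 CPM in DMSO D1 cells. Summed over the 7, the level was 4154 to 4356 CPM in TCDD D2 and 3874 to 3982 CPM in DMSO D2 libraries. At D1 it was 4350 to 4640 CPM with TCDD and 4642 to 4966 CPM with DMSO. For D2 over D1, 4 were called higher and 2 lower with TCDD, and 1 higher and 4 lower with DMSO. Of all tested genes, 65.3% were called with TCDD and 63.2% with DMSO. The summed level of 7 primitive streak and mesoderm markers was 296 to 336 CPM in TCDD D2 libraries, 622 to 660 CPM in DMSO D2 libraries and at most 5.50 CPM in any D1 library. Markers of other cell types differed within their lists. The endoderm gene SOX17 had at most 1 count while GATA4 reached 462 and FOXA2 229, and the cardiomyocyte gene NKX2-5 had at most 3 while TNNT2 had 118 to 660. Of the trophoblast and amnion genes, CGA had none and KRT7 36 to 443. Of the fibroblast genes, LUM had none, DCN and COL3A1 at most 2, COL1A1 5177 to 16474 and THY1 2587 to 20215. In such bulk libraries, fewer cells of a type and less RNA per cell cannot be told apart.

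Levels of different genes were compared only after division by exon length (CPM per kilobase of merged GENCODE v29 exons, which is not the annotation used for counting). At D2 the order was led by the LAT1 pair. SLC7A5 stood first at 176 CPM per kilobase in TCDD D2 cells and 112 in DMSO D2 cells, and SLC3A2 second at 145 and 111. In DMSO D2 cells these neighbours did not differ beyond the spread between libraries. At D1 the arginine and lysine carrier SLC7A3 and the system A carrier SLC38A2 led instead. SLC7A3 stood at 91.7 CPM per kilobase in TCDD D1 cells and 86.6 in DMSO D1 cells, and SLC38A2 at 87.0 and 101. SLC7A5 was then the sixth with TCDD and the eighth with DMSO, at 37.0 and 27.4 CPM per kilobase. SLC1A5, the glutamine exchanger, changed little in this order, at 73.0 in TCDD D2 cells, 70.2 in DMSO D2 cells, 68.4 in TCDD D1 cells and 66.1 in DMSO D1 cells.

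The summed level of all 59 members was 3547 ± 240 CPM in TCDD D2 cells, 3112 ± 151 CPM in DMSO D2 cells, 2701 ± 149 CPM in TCDD D1 cells and 2749 ± 182 CPM in DMSO D1 cells (SD, n = 2 each). Without SLC7A5 the sums were 2737 ± 123 CPM, 2598 ± 96.2 CPM, 2531 ± 141 CPM and 2624 ± 167 CPM in the same order of groups. SLC7A5 alone made up 21.5% and 24% of the sum in the TCDD D2 libraries, 15.8% and 17.2% in the DMSO D2 libraries, 6.24% and 6.33% in the TCDD D1 libraries and 4.75% and 4.36% in the DMSO D1 libraries. With SLC7A5 included, each D2 sum was above each D1 sum. Without it, the difference between times was less than 2 SD in each arm.

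**Figure D1:**
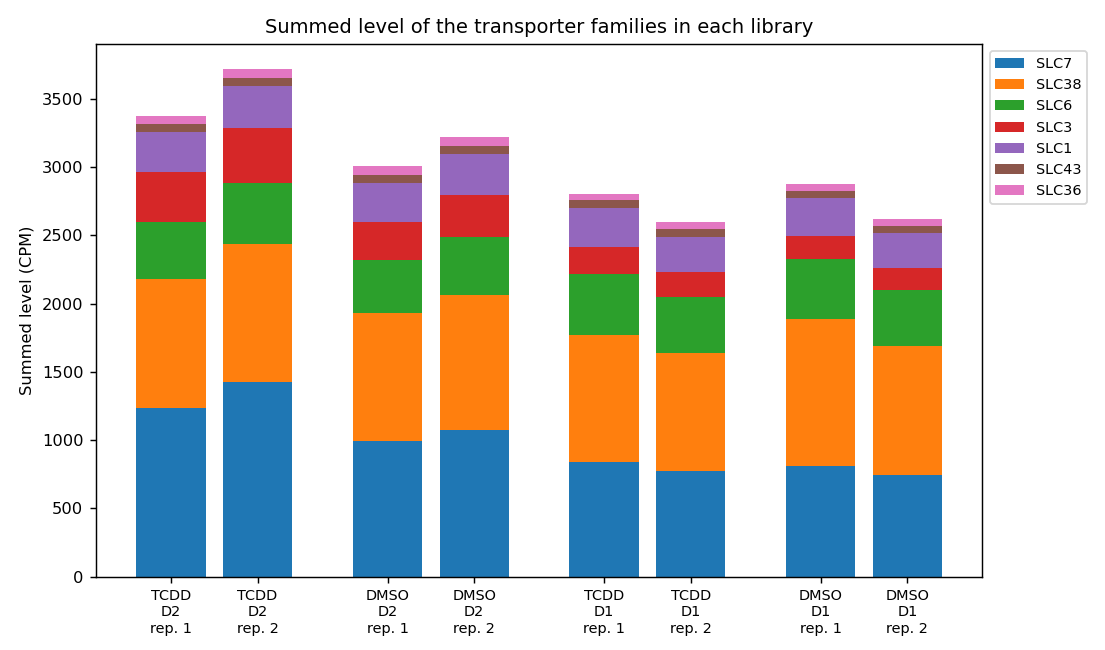
Summed level (CPM) of each transporter family in the 8 libraries, stacked by family, in the order TCDD D2, DMSO D2, TCDD D1 and DMSO D1. The SLC7 part is tallest in the TCDD D2 libraries (1233 and 1428 CPM) and lowest in the D1 libraries (746 to 838 CPM), and the SLC38 part keeps to between 857 and 1079 CPM in all 8.

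Differentiation moved most of the tested members, in both directions. With TCDD, 17 of 44 were higher and 13 lower at D2 than at D1 at an adjusted p under 0.05 (edgeR quasi-likelihood F test, Benjamini-Hochberg over all 17268 genes), and with DMSO 18 were higher and 15 lower. Over all tested genes the share called was 65.3% with TCDD (33.1% higher, 32.2% lower) and 63.2% with DMSO (32.5% higher, 30.7% lower), so the members' shares of 68.2% and 75% were near the background. Changes of at least 2-fold were called for 8 members up and 8 down with TCDD, against 3.83% and 10.5% of all genes, and for 7 up and 5 down with DMSO, against 4% and 9.53% of all genes. The members' median log2 fold change was 0.08 with TCDD and 0.06 with DMSO, and that of all genes was -0.00 and 0.01. Levels did not overlap between the times for 35 members with TCDD and 36 with DMSO, where 81.4% and 82.5% of all genes did not overlap. The TCDD and DMSO arms share no library. In the same direction, 28 members were called in both, which is 93.3% of the members called with TCDD and 84.8% of those called with DMSO. For all genes these shares were 84% and 86.8%.

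The heteromeric exchangers held the strongest rise among well expressed members. SLC7A5 had 727 and 892.5 CPM in TCDD D2 libraries, 476 and 553 CPM in DMSO D2 libraries, 175 and 164 CPM in TCDD D1 libraries, and 137 and 114 CPM in DMSO D1 libraries. Every D2 library was above every D1 library. D2 exceeded D1 by 2.25 ± 0.15 on the log2 scale with TCDD (4.77-fold, SE, edgeR adjusted p = 8.68e-05) and by 2.04 ± 0.15 with DMSO (4.10-fold, edgeR adjusted p = 1.43e-04). A related symbol, SLC7A5P2, had 15 to 53 counts where SLC7A5 had 4499 to 32435. How reads that match both were counted is not given in the sources used here. GENCODE also annotates an antisense gene over SLC7A5, and strand use in the counting is likewise not given.

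SLC3A2, the heavy chain of this pair, rose less. It had 369 and 403 CPM in TCDD D2 libraries, 281.5 and 308.5 CPM in DMSO D2 libraries, 197 and 186 CPM in TCDD D1 libraries, and 172 and 161 CPM in DMSO D1 libraries. The 4 groups did not overlap, and they stood in that order. The log2 fold change of D2 over D1 was 1.01 ± 0.05 with TCDD (edgeR adjusted p = 4.3e-12) and 0.82 ± 0.06 with DMSO (edgeR adjusted p = 1.04e-10).

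The other light chains divided. SLC7A11, the cystine and glutamate exchanger, rose by 1.10 ± 0.17 with TCDD and 0.97 ± 0.16 with DMSO on the log2 scale (edgeR adjusted p = 0.00148 and 0.00249). Its levels were 39.4 and 47.1 CPM in TCDD D2 libraries, 43.1 and 48.8 CPM in DMSO D2 libraries, 21.4 and 18.9 CPM in TCDD D1 libraries, and 26.9 and 20.1 CPM in DMSO D1 libraries. GENCODE annotates an antisense gene over SLC7A11, and since strand use in the counting is not given in the sources used here, reads of the strands cannot be told apart. SLC7A8 (LAT2), which also carries neutral amino acids, fell by 0.56 on the log2 scale with TCDD and by 0.61 with DMSO (edgeR adjusted p = 0.0102 and 0.00699). It had 97.1 and 100.0 CPM in TCDD D2 libraries, 99.0 and 94.2 CPM in DMSO D2 libraries, 159 and 129.9 CPM in TCDD D1 libraries, and 162 and 133 CPM in DMSO D1 libraries. Its D1 libraries spread widely, and the call was lost with TCDD without TCDD D2 replicate 1 or 2 (edgeR adjusted p = 0.0751 and 0.0523) and with DMSO without DMSO D2 replicate 2 (edgeR adjusted p = 0.0504). SLC7A7, an exchanger of cationic for neutral amino acids, fell by 1.03 with TCDD and by 0.68 with DMSO. SLC7A10, which carries small neutral amino acids and D-serine, fell by 1.14 and by 1.03. The gene LRP3 overlaps SLC7A10 on the other strand, with the same limit on strand. SLC7A6, a relative of SLC7A7, had 58.2 to 66.5 CPM in every library, and its log2 fold change was 0.05 with TCDD (95% interval -0.06 to 0.16) and 0.03 with DMSO (95% interval -0.08 to 0.14).

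Among the cationic transporters, SLC7A3 was the member whose fall had the smallest p of all members in each arm. It had 66.7 and 63.3 CPM in TCDD D2 libraries, 70.7 and 69.0 CPM in DMSO D2 libraries, 208 and 207 CPM in TCDD D1 libraries, and 189 and 203.5 CPM in DMSO D1 libraries. The D2 libraries were at about one level and far below all D1 libraries. The fall was 3.19-fold with TCDD (log2 fold change -1.68 ± 0.05, edgeR adjusted p = 8.47e-17) and 2.81-fold with DMSO (-1.49 ± 0.05, edgeR adjusted p = 4.83e-16). SLC7A1, the widely expressed arginine and lysine carrier, rose by 0.49 with TCDD and 0.31 with DMSO on the log2 scale (edgeR adjusted p = 2.13e-06 and 2.88e-04), with means of 164.5 CPM in TCDD D2, 151 CPM in DMSO D2, 117 CPM in TCDD D1 and 122 CPM in DMSO D1 cells. SLC7A14, a lysosomal relative, and SLC7A4, a relative with no established substrate, fell in both arms. SLC7A14 is described with the TCDD results. SLC7A4 stayed under 1 CPM in every library, and its calls were lost without TCDD D2 replicate 1 with TCDD (edgeR adjusted p = 0.127) and without DMSO D1 replicate 1 or DMSO D2 replicate 1 with DMSO (edgeR adjusted p up to 0.0846). SLC7A2 rose by 0.18 with TCDD (edgeR adjusted p = 0.0026) and had a log2 fold change of 0.04 with DMSO (95% interval -0.06 to 0.14). With no composition scaling its value with TCDD was 0.07 and was not called (edgeR adjusted p = 0.181).

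The sodium-coupled SLC38 carriers also split. Of the system A members, SLC38A1 rose by 0.57 with TCDD and 0.31 with DMSO on the log2 scale (edgeR adjusted p = 0.00173 and 0.0299), whereas SLC38A2 fell by 0.34 and by 0.53 (edgeR adjusted p = 3.91e-05 and 1.71e-07). SLC38A2, a carrier that rises in many cells when amino acids run short, had 337 and 351 CPM in TCDD D2 libraries, 338.5 and 359 CPM in DMSO D2 libraries, 445 and 426 CPM in TCDD D1 libraries, and 540.0 and 468 CPM in DMSO D1 libraries. The third system A member, SLC38A4, had the largest fall of the system. Its levels were 5.94 and 5.97 CPM in TCDD D2 libraries, 5.98 and 7.28 CPM in DMSO D2 libraries, 17.9 and 18.8 CPM in TCDD D1 libraries, and 19.3 and 19.6 CPM in DMSO D1 libraries, a log2 fold change of -1.62 ± 0.09 with TCDD and -1.55 ± 0.09 with DMSO (edgeR adjusted p = 3.8e-12 and 5.83e-12). Of the system N members, which carry glutamine and histidine, SLC38A5 rose by 0.81 with TCDD and 0.90 with DMSO on the log2 scale, and SLC38A3 fell by 1.68 and by 1.45 at levels under 3 CPM. The call for SLC38A1 with DMSO was lost without DMSO D2 replicate 2, without TCDD D2 replicate 1 and with no composition scaling (edgeR adjusted p up to 0.117).

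At the lysosome, SLC38A7, a glutamine exporter, and SLC36A1, a proton-coupled carrier, both rose. SLC38A7 went up by 0.90 ± 0.06 with TCDD and 0.72 ± 0.06 with DMSO on the log2 scale (edgeR adjusted p = 9.89e-11 and 3.22e-09). SLC36A1 had 23.69 and 24.44 CPM in TCDD D2 libraries, 25.15 and 26.4 CPM in DMSO D2 libraries, 11.97 and 11.15 CPM in TCDD D1 libraries, and 12.93 and 11.01 CPM in DMSO D1 libraries, a log2 fold change of 1.05 ± 0.08 with TCDD and 1.11 ± 0.08 with DMSO (edgeR adjusted p = 3.29e-10 and 1.41e-10). The arginine sensor SLC38A9 and SLC36A4 were not called. With no composition scaling SLC36A4 had log2 fold changes of -0.14 with TCDD and -0.20 with DMSO, which were called (edgeR adjusted p = 0.0413 and 0.00649), and the fit of the DMSO libraries alone also called it (edgeR adjusted p = 0.0446). SLC38A9 had 21.9 to 24.4 CPM in every library, with a log2 fold change of -0.03 with TCDD (95% interval -0.17 to 0.11) and 0.02 with DMSO (95% interval -0.12 to 0.16). SLC38A10, a less studied relative, rose by 0.29 and 0.18, and without DMSO D1 replicate 2 the call with DMSO was lost (edgeR adjusted p = 0.0732), as it was with no composition scaling, where the value was 0.10 (edgeR adjusted p = 0.127).

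Of the excitatory glutamate transporters of SLC1, which carry glutamate and aspartate into cells, SLC1A1 rose. It had 22.3 and 23.4 CPM in TCDD D2 libraries, 21.9 and 23.8 CPM in DMSO D2 libraries, 8.77 and 9.33 CPM in TCDD D1 libraries, and 8.80 and 7.73 CPM in DMSO D1 libraries. The log2 fold change was 1.34 ± 0.08 with TCDD and 1.47 ± 0.08 with DMSO (edgeR adjusted p = 1.43e-11 and 4.3e-12), and D2 libraries with and without TCDD overlapped. SLC1A2, at 1.04 to 3.14 CPM, rose by 1.03 and 0.73, and the call with DMSO was lost without DMSO D1 replicate 2 or DMSO D2 replicate 2 (edgeR adjusted p up to 0.267). SLC1A3 and SLC1A6 were not called, except SLC1A6 lower with TCDD with no composition scaling. Nor were the neutral exchangers SLC1A4 and SLC1A5, although leaving out TCDD D1 replicate 1 gave SLC1A5 an edgeR adjusted p of 0.00959 with TCDD. The log2 fold change of SLC1A5 was 0.09 in both arms (95% interval -0.03 to 0.22 with TCDD and -0.04 to 0.21 with DMSO).

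In SLC6, the sodium and chloride coupled family of neurotransmitter and amino acid carriers, the brain proline transporter SLC6A7 had the largest fold of all members but few counts. It had 1.76 and 1.07 CPM in TCDD D2 libraries, 1.36 and 1.58 CPM in DMSO D2 libraries, 0.0467 and 0.248 CPM in TCDD D1 libraries, and 0.127 and 0.229 CPM in DMSO D1 libraries. Its log2 fold change was 3.34 ± 0.43 with TCDD and 3.03 ± 0.41 with DMSO (edgeR adjusted p = 1.67e-06 and 2.85e-06), and it overlaps CAMK2A on the other strand, with the same limit on strand. SLC6A15, a carrier of branched-chain amino acids and proline, rose by 0.16 with TCDD and 0.35 with DMSO at 41.3 to 57.2 CPM, and the call with TCDD was lost without TCDD D1 replicate 1 or TCDD D2 replicate 1 (edgeR adjusted p = 0.225 and 0.0915) and with no composition scaling, where the value was 0.05 (edgeR adjusted p = 0.43). SLC6A16, an orphan member, fell by 1.31 and by 1.29, the GABA carrier SLC6A11 by 0.59 and by 0.53, and the dopamine carrier SLC6A3 by 1.14 and by 0.76, all at under 4 CPM. The call for SLC6A11 with DMSO was lost without DMSO D1 replicate 1 or DMSO D2 replicate 1 (edgeR adjusted p up to 0.102). SLC6A6, the taurine carrier and the most abundant SLC6 member per length, had 229 to 296.5 CPM and was not called in the fit of all 8 libraries (log2 fold change -0.14 with TCDD, 95% interval -0.42 to 0.14, and -0.21 with DMSO, 95% interval -0.49 to 0.07). It was called lower with DMSO with no composition scaling, without the filter on low counts, in the fit of the DMSO libraries alone, and without DMSO D1 replicate 2, TCDD D1 replicate 1 or TCDD D1 replicate 2. With TCDD it was called lower without TCDD D1 replicate 2 and with crossed replicate numbers as a block. The noradrenaline carrier SLC6A2 rose in both arms but stayed under 1 CPM.

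A further 7 members were called in a single arm, and 6 of them are described here. SLC6A8, the creatine carrier, and SLC7A2 were called with TCDD. SLC6A9 (a glycine carrier), SLC6A12 (a betaine carrier), SLC6A17 (a synaptic vesicle carrier) and SLC43A1 (a facilitated carrier of large neutral amino acids) were called with DMSO. The difference between the arms was not called for any of the 6: it equals the D2 effect of TCDD less its D1 effect, with edgeR adjusted p of 0.483 or more. Leaving out 1 library also changed most of these calls. SLC6A8 lost its call with TCDD without TCDD D1 replicate 1, TCDD D2 replicate 1 or TCDD D2 replicate 2 (edgeR adjusted p up to 0.0726), or with no composition scaling (edgeR adjusted p = 0.0841), and gained one with DMSO without DMSO D1 replicate 2 (edgeR adjusted p = 0.00118). SLC43A1 lost its call without any 1 of the 4 DMSO libraries (log2 fold change 0.15 to 0.19). It also lost it with another scaling (RLE), without the filter on low counts (edgeR adjusted p = 0.0539 and 0.0629) and with DESeq2 (DESeq2 adjusted p = 0.144). With no composition scaling its value was 0.08 (edgeR adjusted p = 0.319). SLC6A12 lost its call without DMSO D1 replicate 1, either DMSO D2 library or TCDD D2 replicate 1 (log2 fold change -1.18 to -0.37). Its call was also lost with DESeq2 (DESeq2 adjusted p = 0.148) and with replicate numbers as a block (edgeR adjusted p = 0.0509). SLC6A9 lost its call with DMSO without DMSO D1 replicate 1 or DMSO D2 replicate 1 (edgeR adjusted p up to 0.118) and gained one with TCDD without TCDD D1 replicate 2 or TCDD D2 replicate 2 (edgeR adjusted p = 0.0205 and 0.0367). In SLC43, SLC43A3, a nucleobase carrier, rose by 0.18 with TCDD and 0.24 with DMSO on the log2 scale, and SLC43A2, a facilitated carrier like SLC43A1, fell by 0.30 and by 0.31. With TCDD, the call for SLC43A3 was lost without TCDD D1 replicate 2 or TCDD D2 replicate 2 (edgeR adjusted p up to 0.105) and with no composition scaling, where the value was 0.07 (edgeR adjusted p = 0.368), and that for SLC43A2 without TCDD D2 replicate 1 (edgeR adjusted p = 0.0705).

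**Figure D2:**
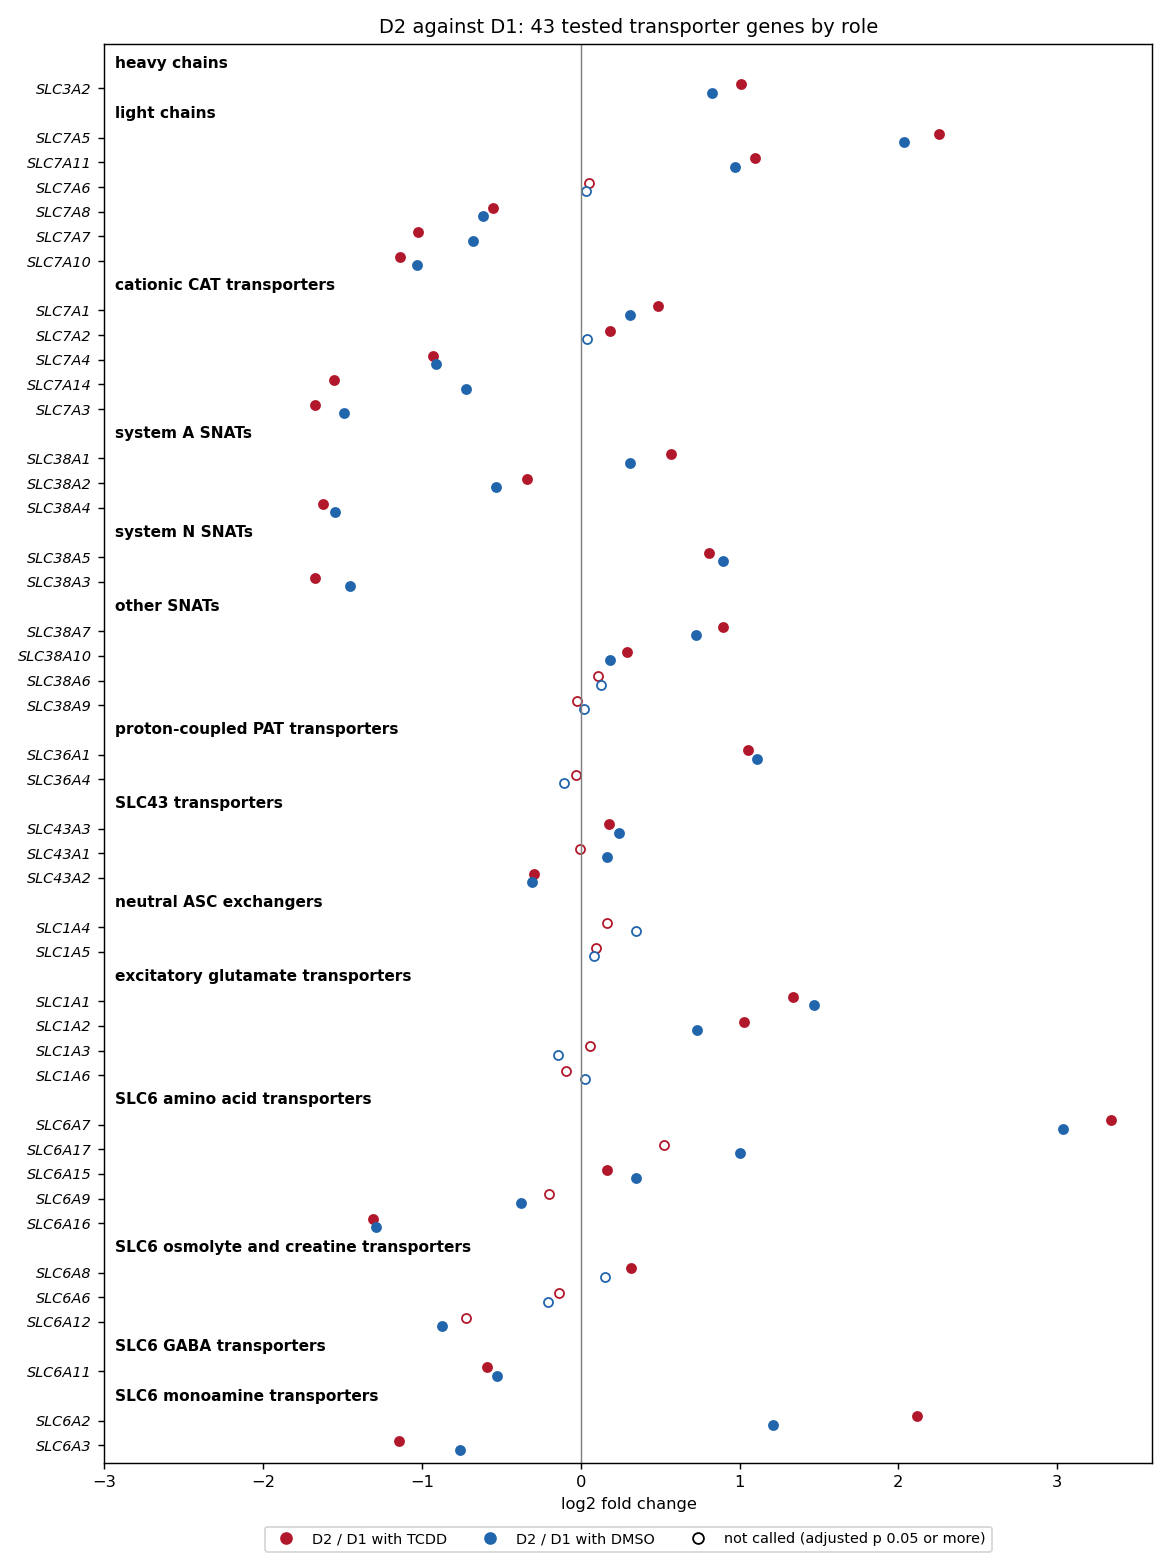
Log2 fold change of D2 over D1 for 43 of the 44 tested members, grouped by role, with TCDD (red) and with DMSO (blue). Filled points passed an adjusted p of 0.05, and open points did not. SLC6A7 and SLC7A5 lie farthest to the right in both arms, and SLC7A3, SLC38A3 and SLC38A4 farthest to the left among those with DMSO.

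TCDD against DMSO changed few members. At D2, 1 of 44 was higher and 1 lower at an edgeR adjusted p under 0.05, where 2.9% of all tested genes were called (1.4% higher, 1.5% lower). At D1 none was called, where 1.14% of all genes were called. The median log2 fold change of the 44 members was -0.01 at D2 and -0.01 at D1, and that of all genes was 0.00 at both times. Groups did not overlap for 22 members at D2 and 18 at D1, where 47.7% and 37.5% of all genes did not overlap. At an unadjusted p under 0.05, 11 members passed at D2 and 7 at D1, where 14% and 10.3% of all genes passed. DESeq2 also called none at D1. The D2 and D1 comparisons share no library.

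SLC3A2 was the member that TCDD raised at D2. Its 369 and 403 CPM in TCDD D2 libraries stood above the 281.5 and 308.5 CPM in DMSO D2 libraries, without overlap, and the log2 fold change was 0.39 ± 0.05 (1.31-fold, 95% interval 0.27 to 0.50, edgeR adjusted p = 1.29e-04). It was called in all 14 alternative analyses. At D1 it had 197 and 186 CPM with TCDD and 172 and 161 CPM with DMSO, a log2 fold change of 0.20 ± 0.06 that was not called (edgeR adjusted p = 0.0951), though it was without the filter on low counts (edgeR adjusted p = 0.00345, with up to 0.38 in the other alternatives).

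SLC7A5, the light chain partner, had a larger fold with a wider error. At D2 it had 727 and 892.5 CPM with TCDD and 476 and 553 CPM with DMSO, and at D1 175 and 164 CPM with TCDD and 137 and 114 CPM with DMSO. The groups did not overlap at either time. The log2 fold change was 0.65 ± 0.15 at D2 (95% interval 0.28 to 1.03, edgeR adjusted p = 0.133) and 0.44 ± 0.15 at D1 (95% interval 0.05 to 0.83, edgeR adjusted p = 0.428), so neither was called. DESeq2 called it at D2 (DESeq2 adjusted p = 0.00367), as did edgeR without DMSO D1 replicate 1, without DMSO D1 replicate 2 or without TCDD D2 replicate 1 (edgeR adjusted p = 0.0426, 0.0397 and 0.0415). Over all alternatives at D2 the adjusted p ran from 0.00367 to 0.401. At D1 a fit of those 4 libraries alone called it (edgeR adjusted p = 0.0104, with up to 0.613 in the other alternatives).

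SLC7A14 was the member that TCDD lowered at D2. SLC7A14 is a lysosomal relative of the cationic transporters, known for a form of inherited retinal degeneration. It had 1.61 and 1.60 CPM in TCDD D2 libraries (68 and 58 counts), 3.17 and 3.31 CPM in DMSO D2 libraries (116 and 136 counts), 4.50 and 4.98 CPM in TCDD D1 libraries, and 5.40 and 5.29 CPM in DMSO D1 libraries. TCDD libraries were below DMSO libraries at each time without overlap. The log2 fold change was -1.01 ± 0.16 at D2 (2.02-fold lower, edgeR adjusted p = 3.27e-04) and -0.18 ± 0.12 at D1 (95% interval -0.42 to 0.07, edgeR adjusted p = 0.675). The D2 effect of TCDD less its D1 effect was -0.84 ± 0.20 (edgeR adjusted p = 0.0469). Across D2 over D1, SLC7A14 fell by 1.56 on the log2 scale with TCDD and by 0.72 with DMSO. GENCODE annotates an RNA gene on the other strand here too. The GCGTG letters were absent from its window.

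**Figure D3:**
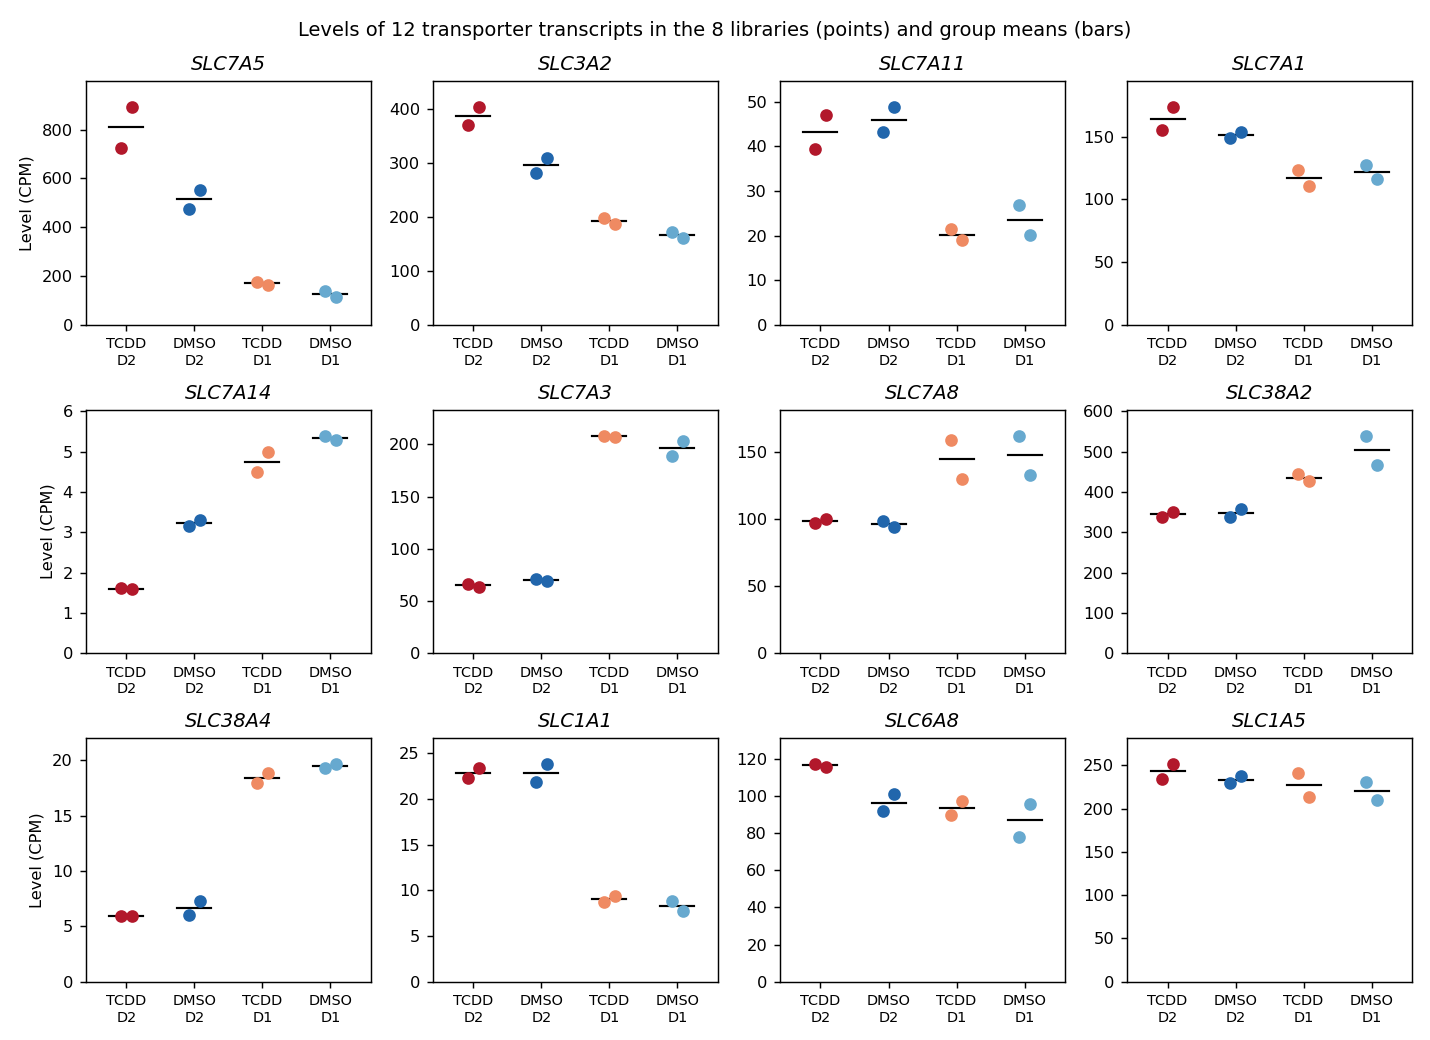
Level (CPM) of 12 members in each library (points) with the mean of each group (bars), in the order TCDD D2, DMSO D2, TCDD D1 and DMSO D1. Each axis starts at 0 and has its own scale. At D2 the TCDD and DMSO libraries do not overlap for SLC7A5, SLC3A2, SLC7A14, SLC6A8, SLC7A1, SLC7A3 and SLC38A4. The same held for 47.7% of all tested genes. For SLC1A1, SLC7A11, SLC1A5, SLC7A8 and SLC38A2 the D2 groups overlap.

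Values nearer the threshold came from other roles. SLC6A8, which imports creatine, had 117 and 116 CPM in TCDD D2 libraries and 91.8 and 101 CPM in DMSO D2 libraries (log2 fold change 0.27 ± 0.08, edgeR adjusted p = 0.157), and it was called by DESeq2, without the filter on low counts, in the fit of the 4 D2 libraries alone, with replicate numbers as a block, and without DMSO D1 replicate 1 or 2 (adjusted p from 1.18e-05 to 0.656 over all alternatives). SLC6A15 had 49.5 and 48.2 CPM in TCDD D2 libraries and 54.7 and 57.2 CPM in DMSO D2 libraries (log2 fold change -0.20 ± 0.06, edgeR adjusted p = 0.0768). It was called lower with no composition scaling, without the filter, in the fit of the D2 libraries alone and without TCDD D1 replicate 1 or 2. At D1, SLC38A2 had 445 and 426 CPM with TCDD and 540.0 and 468 CPM with DMSO (log2 fold change -0.21 ± 0.06, edgeR adjusted p = 0.094), and without DMSO D1 replicate 2 it was called (edgeR adjusted p = 0.00866, with 5e-04 to 0.953 over all alternatives). SLC7A2 had 69.5 and 70.2 CPM in TCDD D1 libraries and 82.7 and 76.6 CPM in DMSO D1 libraries (log2 fold change -0.19 ± 0.05, edgeR adjusted p = 0.071). In all 4 of these the groups did not overlap, which also held for 47.7% of all genes at D2 and 37.5% at D1.

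For most members the intervals bounded the difference between these TCDD and DMSO libraries to a modest size. Like the p-values, they measure only the spread between these libraries, which may be technical. The 95% interval of the log2 fold change lay within -0.5 to 0.5 for 29 of 44 members at D2 and 32 at D1, and within -1 to 1 for 39 and 41. Well measured members with narrow intervals at D2 were SLC1A5 (-0.07 to 0.18), SLC38A2 (-0.14 to 0.10), SLC36A4 (-0.13 to 0.11), SLC7A6 (-0.16 to 0.06) and SLC7A3 (-0.21 to 0.00). SLC7A11 was less well bounded, at -0.47 to 0.29 at D2 and -0.65 to 0.21 at D1. SLC1A3, an astrocyte glutamate carrier that other cells also make, had a D2 interval of -0.22 to 0.40, SLC1A4 of -0.30 to 0.46, SLC6A9 of -0.03 to 0.46, SLC43A1 of -0.08 to 0.20 and SLC43A2 of -0.03 to 0.33. The widest intervals were those of SLC6A12 at D2 and SLC6A7 at D1, each under 1 CPM there.

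**Figure D4:**
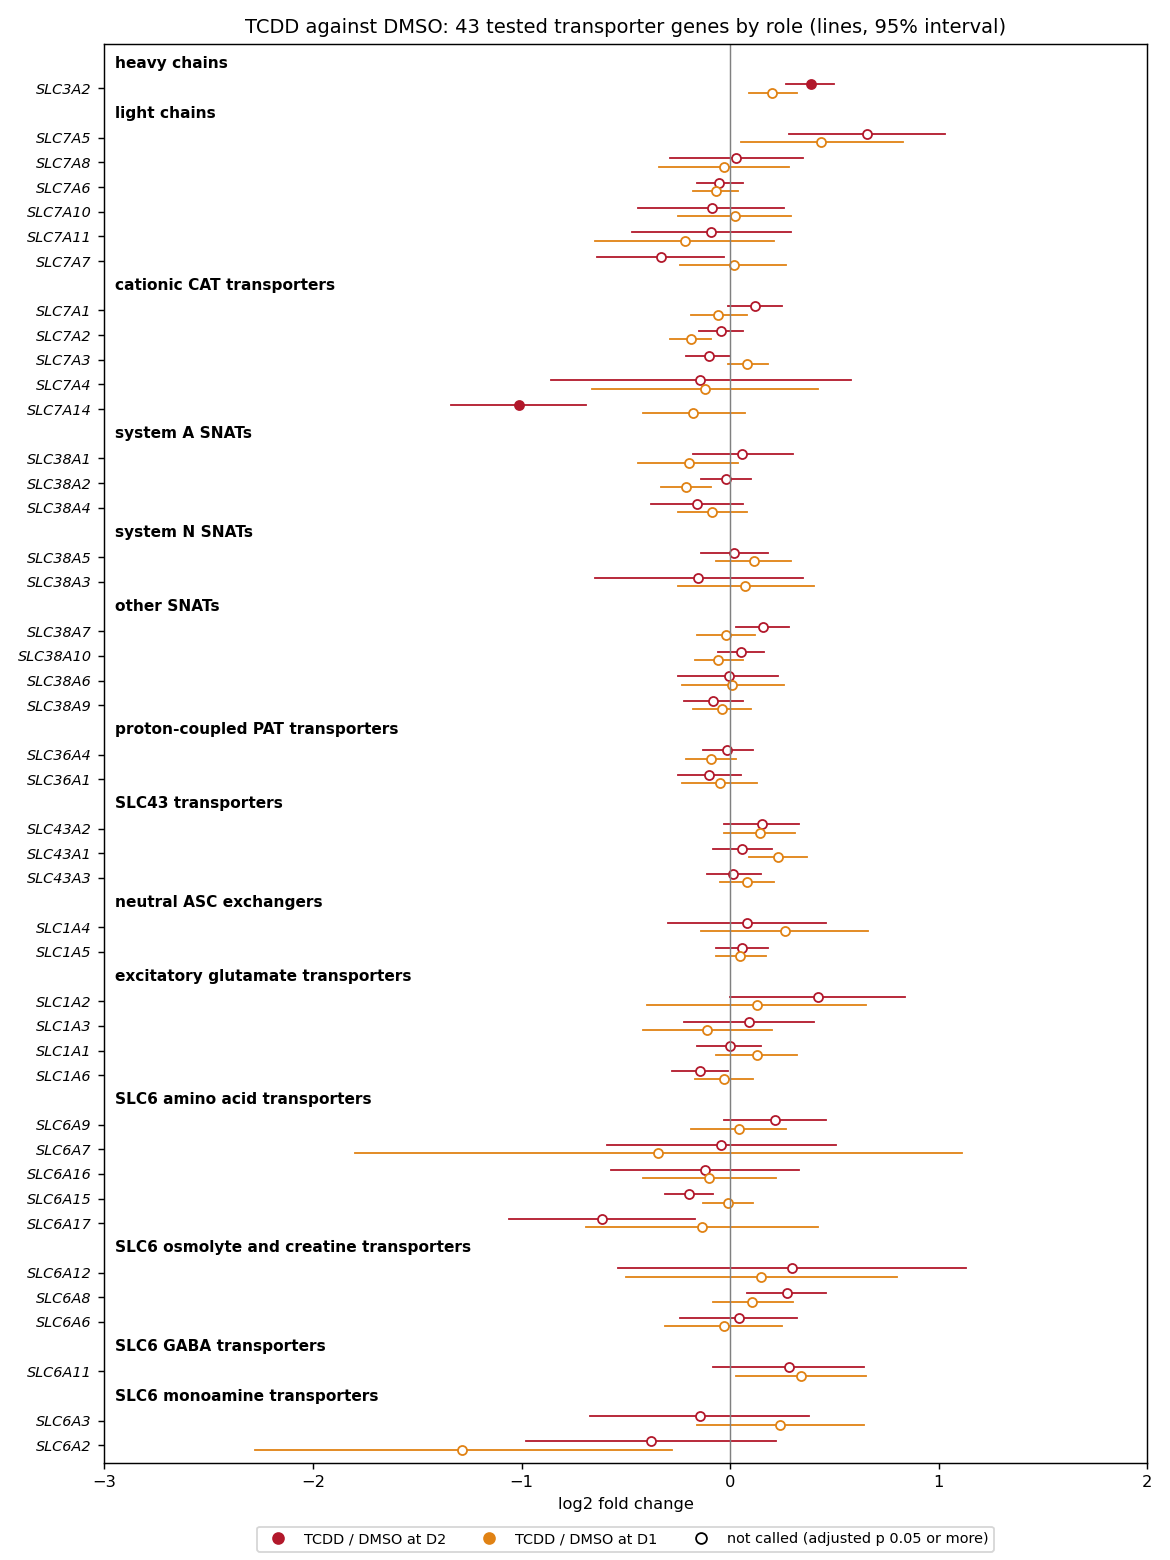
Log2 fold change of TCDD over DMSO with its 95% interval for 43 of the 44 tested members, grouped by role, at D2 (red) and D1 (orange). Filled points passed an adjusted p of 0.05, and open points did not. SLC3A2 at 0.39 and SLC7A14 at -1.01 are filled, both at D2, and no D1 point is.

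The TCDD effect differed between the times for 1 of 44 members, where 0.822% of all genes were called (0.527% higher, 0.295% lower). That member was SLC7A14, and the call was lost in 9 of 13 alternatives, with a DESeq2 adjusted p of 0.255 and edgeR adjusted p of 0.0363 to 0.186 over the fits that leave out a library, of which the fit without TCDD D1 replicate 1 kept it. For SLC7A5 the difference was 0.22 ± 0.21 (95% interval -0.32 to 0.76) and for SLC3A2 0.19 ± 0.08 (95% interval 0.02 to 0.35, edgeR adjusted p = 0.391).

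The libraries in which SLC3A2 was raised by TCDD also had lower primitive streak transcripts. At D2, 5 of 7 of these markers were called lower with TCDD and none higher, where 1.5% of all genes were called lower and 1.4% higher. Of the 7 log2 fold changes 6 were negative and 1 positive, from -1.21 to 0.35. MIXL1, a streak transcription factor, averaged 128 CPM in TCDD D2 cells and 297 CPM in DMSO D2 cells. The summed level of the list did not overlap between the groups, at 296 to 336 CPM against 622 to 660 CPM. Of 7 pluripotency markers, SOX2 (log2 fold change 0.59) and PRDM14 (0.41) were called higher. Endoderm markers summed to 13.1 to 16.7 CPM in TCDD D2 and 18.5 to 18.9 CPM in DMSO D2 libraries, neural markers to 2.04 to 2.68 and 2.27 to 2.51 CPM, and trophoblast and amnion markers to 1.83 to 2.15 and 1.31 to 1.61 CPM. Cardiomyocyte markers summed to 7.74 to 8.37 CPM in TCDD D2 and 7.45 to 7.56 CPM in DMSO D2 libraries, and fibroblast markers, carried by THY1 and COL1A1, to 268 to 269.5 and 209.8 to 224 CPM. At D1 the streak sum was 4.32 to 4.63 CPM in TCDD and 5.19 to 5.50 CPM in DMSO libraries. The part of these markers in the transporter differences was not tested.

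Beyond the transporter families, 6 lists of related genes were read in the same fits. Among 34 tested genes of amino acid sensing upstream of mTORC1, 3 were higher with TCDD at D2 and 1 at D1, and none was lower, where 1.4% of all genes were called higher at D2 and 0.735% at D1. DDIT4, a stress-induced inhibitor of mTORC1, was higher at both times by 0.37 on the log2 scale: it averaged 245 CPM in TCDD D2 and 189.9 CPM in DMSO D2 cells, and 109 CPM in TCDD D1 and 84.7 CPM in DMSO D1 cells (edgeR adjusted p = 9.64e-05 and 3.74e-04). At D2 the leucine sensor family gene SESN3 (0.35 ± 0.06, edgeR adjusted p = 0.00237) and the Rag GTPase gene RRAGD (0.28 ± 0.07, edgeR adjusted p = 0.0488) were higher too. For D2 over D1, 21 genes of this list were higher and 2 lower with TCDD, and 19 higher and 4 lower with DMSO. The share called was 67.6% in each arm, near that of all genes, with medians of 0.23 and 0.22 against -0.00 and 0.01 for all genes. DDIT4 rose by 1.16 in each arm, the Rag gene RRAGA by 0.59 and 0.68 and the Ragulator gene LAMTOR1 by 0.46 and 0.48, while CASTOR1, an arginine sensor, fell by 0.98 and by 0.92.

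Of 23 tested genes of the response to amino acid shortage through ATF4, 1 was higher and 1 lower with TCDD at D2 and none at D1, where 2.9% and 1.14% of all genes were called. ALDH1L2, a mitochondrial folate enzyme, was higher by 0.64 ± 0.12 (edgeR adjusted p = 0.00371), and VLDLR, a lipoprotein receptor, was lower (log2 fold change -0.27 ± 0.07, edgeR adjusted p = 0.0368). For D2 over D1 the list split into 7 higher and 10 lower with TCDD and 7 higher and 9 lower with DMSO, a share of 73.9% and 69.6% near the 65.3% and 63.2% of all genes. SHMT2, a serine enzyme, rose by 0.58 and 0.49, and EIF2AK4, the kinase that senses uncharged tRNA, fell by 0.48 and by 0.57. PHGDH, the first enzyme of serine synthesis, fell by 0.33 and by 0.34, and JDP2, a repressor of the AP-1 family, by 0.79 and by 0.70.

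Among 10 genes for partners and trafficking of the transporters, CD44, a surface protein that can stabilise the cystine exchanger, was higher with TCDD at D2: it averaged 35.03 CPM in TCDD D2 and 24.97 CPM in DMSO D2 cells (log2 fold change 0.49 ± 0.07, edgeR adjusted p = 1.29e-04), and none of the list was called at D1. NEDD4L, a ubiquitin ligase that removes carriers from the surface, was higher by 0.21 ± 0.05 (edgeR adjusted p = 0.0222). Over all genes, 1.4% were called higher at D2. For D2 over D1, 4 of the 10 were higher and 4 lower with TCDD and 3 and 3 with DMSO, which is 80% and 60% of the list, against 65.3% and 63.2% of all genes. CD44 rose by 2.57 and 1.93 and LAPTM4B, which brings the LAT1 pair to lysosomes, by 0.46 and 0.64, while NEDD4 fell by 0.60 and by 0.63 and ARL6IP5, a partner of the glutamate carrier SLC1A1, by 0.59 and by 0.41.

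The other 3 lists held 1 call for TCDD, PYCR1, an enzyme of proline synthesis, which was higher at D1 by 0.24 ± 0.05 (edgeR adjusted p = 0.0197). Among all genes, TCDD gave calls for 1.14% at D1 and 2.9% at D2. Of 26 genes of glutamine, glutamate, proline, creatine and GABA metabolism, 11 were higher and 10 lower at D2 than at D1 with TCDD, and 11 and 7 with DMSO, which is 80.8% and 69.2% of the list, against 65.3% and 63.2% of all genes. GAD1, which makes GABA from glutamate, averaged 124 CPM in TCDD D2 and 117 CPM in DMSO D2 cells, against 1.11 CPM in TCDD D1 and 0.635 CPM in DMSO D1 cells, a log2 fold change of 6.78 and 7.52. OAT, ornithine aminotransferase, rose by 0.70 and 0.62, while ABAT, which degrades GABA, fell by 0.88 and by 0.78. Of 13 tested mitochondrial carriers, 8 rose in each arm, and 2 fell with TCDD and 3 with DMSO, so that 76.9% and 84.6% were called, against 65.3% and 63.2% of all genes. The sideroflexin SFXN2 rose by 1.13 and 1.09, and its relative SFXN3 fell by 1.18 and by 1.08. SLC25A13, an aspartate and glutamate carrier, rose by 0.80 and 0.72. Of 12 other plasma membrane, lysosomal and vesicular carriers, 5 rose in each arm, and 6 fell with TCDD and 5 with DMSO, so that 91.7% and 83.3% were called, against the same shares of all genes. The lysosomal cystine exporter CTNS rose by 0.89 and 0.74 and the sialic acid carrier SLC17A5 by 0.64 and 0.55, while the peptide carriers SLC15A1 and SLC15A3 fell by 1.76 and by 1.81 with TCDD, and by 1.67 and by 1.85 with DMSO.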

How the data were processed

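The deposited tables held the authors' raw read counts per gene symbol, 1 table per library. The submitters' processing notes name cutadapt 1.9.1 (a read trimmer), STAR (an aligner), featureCounts 1.5.1 (a read counter) and the build hg19. Not given in the sources used here were the STAR version, annotation, strand setting and handling of multiply matched reads, so overlapping and near-identical genes are uncertain. GENCODE v29 also annotates overlapping genes for other named members, among them SLC1A5, SLC6A6, SLC6A9, SLC7A6 and SLC43A3. Groups came from sample titles.

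Members were found by symbol. R 4.3.3 with edgeR 4.0.16 (limma 3.58.1) was used: filterByExpr, TMM scaling and 1 robust quasi-likelihood fit of all 8 libraries with 4 group means (common dispersion equal to a coefficient of variation of 3.86%), two-sided F tests and Benjamini-Hochberg adjustment over 17268 genes in each of 5 comparisons, called under 0.05. Standard errors were derived from F. The script was tested on simulated counts. DESeq2 1.42.0, other scaling, filters, a replicate block, 2-group fits and leaving out each library were alternatives. The chi-square statistic per gene between replicates (at least 20 counts) was 3.21 to 6.59, so no pair was treated as a repeat deposit of 1 library. It does not show that they came from separate cultures.

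Members and lists were chosen with earlier results of these data known. Named members were every called member, in differentiation the 10 largest called rises and falls with at least 1 CPM, and 18 always named; in each list, up to 4 called genes of smallest p. Others were chosen after their values were seen. Promoter windows and lengths came from RefSeq GRCh38.p14 and GENCODE v29. A few genes that enter the counts are not reported here by name.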

Additional observations from a re-analysis of the deposited data

Results flagged for a closer look

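The D2 effect of TCDD less its D1 effect was tested for every gene, and 0.822% of all tested genes were called. At an edgeR adjusted p under 0.05, 3 transporter or related genes differed between the times. They were 1 of 44 members, 1 of 10 partner and trafficking genes and 1 of 34 amino acid sensing genes. The other lists of related genes had none. SLC7A14 had a difference of -0.84 on the log2 scale (edgeR adjusted p = 0.0469), and this call was lost in 9 of 13 alternatives. CD44 had a difference of 0.65 (edgeR adjusted p = 0.0116). SESN3 had a difference of 0.61 (edgeR adjusted p = 0.00171). Its mean with TCDD was above that with DMSO at D2 (106.4 against 83.35 CPM). At D1 it was below (96.1 against 114.6 CPM), where SESN3 was not called. The values of CD44 and SESN3 were not followed through the alternative analyses. Groups of 2 libraries are too small to look for a library far from the others.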

How the results depend on the processing

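For TCDD against DMSO and for the difference of TCDD effects, counts of called members were small, and a change of 1 call moves them by over 1.5 times. For D2 over D1 they stayed within 1.5 times of the main fit in every alternative. Keeping all genes with at least 1 count gave 480 called genes for TCDD at D1 with 1 member higher (SLC3A2) and 3 lower (SLC38A1, SLC38A2 and SLC7A2), 885 at D2 with 2 members higher (SLC3A2 and SLC6A8) and 2 lower (SLC6A15 and SLC7A14), and 433 for the difference of TCDD effects with 1 member higher (SLC38A1). At D2, DESeq2 called 3 members higher, the replicate block 2 and the 2-group fit 2. The 2-group fit and the fit with no composition scaling each called 2 lower. Over all genes at D2, DESeq2 called 346, the 2-group fit 696 and the fit with no composition scaling 532. The main fit called 500. At D1 the 2-group fit called 1 member higher (SLC7A5) and 137 of all genes, against 197 in the main fit. For the difference of TCDD effects, DESeq2 and the replicate block each called 0 members lower, and the causes were not tested. DESeq2 called 120 of all genes for this difference, against 142 in the main fit. Replicate numbers did not pair the libraries: deviations of same-numbered libraries correlated at -0.1005 to 0.1103 over 17268 genes. With the replicate block the numbers called over all genes were 205 at D1, 502 at D2, 145 for the difference, 11226 for D2 over D1 with TCDD and 10887 with DMSO. A crossed pairing of the 4 TCDD libraries, chosen after seeing the data, called 17 members higher and 16 lower in D2 over D1. It called 11653 of all genes, against 11271 in the main fit.

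Leaving out 1 library at a time gave 78 to 246 called genes at D1, with 0 members higher and 0 to 1 lower. At D2 it gave 215 to 653 genes, 1 to 3 members higher and 1 to 2 lower, and for the difference 49 to 269 genes, 0 members higher and 0 to 1 lower. For D2 over D1 it gave 9799 to 11300 genes with TCDD (15 to 17 members higher, 10 to 16 lower) and 9183 to 11286 with DMSO (15 to 18 higher, 12 to 17 lower). Where that leaves 1 library in a group, it is assumed to vary like the other groups. No called value of a named member changed direction in any alternative, and 55 values of called members lost the call. Single genes of the other lists were not followed in the alternatives. With no composition scaling the median of all genes for D2 over D1 with TCDD was -0.11. Depth limits members under 1 CPM.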
